A study of Cyanidioschyzon merolae strain 10D with 4 samples.

Results

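Under blue light, 208 genes of the nuclear genome of Cyanidioschyzon merolae, a unicellular red alga, were at least 4 times as abundant as in darkness while already being transcribed in darkness. These genes were selected on the measured values themselves, and their rise is therefore a description with no test of its own. Of the 5100 genes of the table, the rule took the 4457 with an identifier starting with CM that lay on a numbered chromosome, had a locus of their own and spanned 300 bp or more, called eligible genes below. It then required at least 10 FPKM in darkness (fragments scaled to gene length and library size, 1 deposited value per condition), at least 100 FPKM under blue light, and a blue light value of at least 4 times the darkness value. The darkness limit kept 4141 genes, the blue light limit 2110 and the fold limit 210. A further 20 identifiers were left out by name, of which 2 met all limits, CMI233C and CMN263C. The 208 members made up 4.67% of the eligible genes and 5.02% of those at 10 FPKM or more in darkness.

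The libraries came from wild-type cells of strain 10D, 2 kept in darkness and 2 exposed for 30 minutes to blue light of 15 µmole m-2s-1. The cells were grown in 2xMA medium, and RNA was taken from total cells, so a change in transcript level per cell and a change in the mix of cells cannot be told apart. The study describes its samples as biological duplicates without saying whether these were separate cultures, so the spread between libraries may be technical in part. FPKM is a share of the sequenced fragments, and a level here is always relative to the other transcripts of that condition.

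The alga lives in hot, acidic springs and has a compact nuclear genome with very few introns. For a photosynthetic cell, light is both the energy source and a signal, and blue light is read in algae and plants by flavin-binding photoreceptors such as cryptochromes. A match to the RefSeq locus tags of assembly ASM9120v1 was found for 207 of the 208 members, all 207 annotated as protein-coding, and the remaining one was CMX001C. The RefSeq table gives 0 symbols other than locus tags, and the members are therefore named by identifier only, with no product or role. The RefSeq length was a multiple of 3 for 206 members, and for 205 it was within 3 bp of the deposited span, which makes the counted region of nearly every member its coding length. The exceptions were CMO170C and CMQ241C, whose spans differed from RefSeq by more.

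Most members moved from the sparser part of the transcriptome to its abundant part, as the rule in large part requires. The blue light limit of 100 FPKM lies above the eligible median under blue light, and each member had to rise at least 4-fold. The ranks and shares given here are therefore descriptions. Of the 208 members, 156 ranked below the median of eligible genes in darkness, and 0 under blue light. In darkness the members ran from 10.5 to 1056 FPKM with a median of 40.2, against a median of 97.7 FPKM for all eligible genes. Under blue light they ran from 103 to 4245 FPKM with a median of 349, against 94.8 FPKM for all eligible genes. In darkness 116 of the 208 stood in the lowest 25% of eligible genes and 8 in the highest 10%, and 0 were among the 100 highest. Under blue light 96 stood in the highest 10% and 26 were among the 100 highest. Together they held 1.76% of all FPKM of the table in darkness and 13.1% under blue light. Their sum went from 18023 FPKM to 135070 FPKM, while the sum over all genes differed little, at 1023560 and 1027280 FPKM. No few genes carried this sum: the 10 highest members held 29.6% of the members' FPKM in darkness and 22.2% under blue light.

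**Figure D1:**
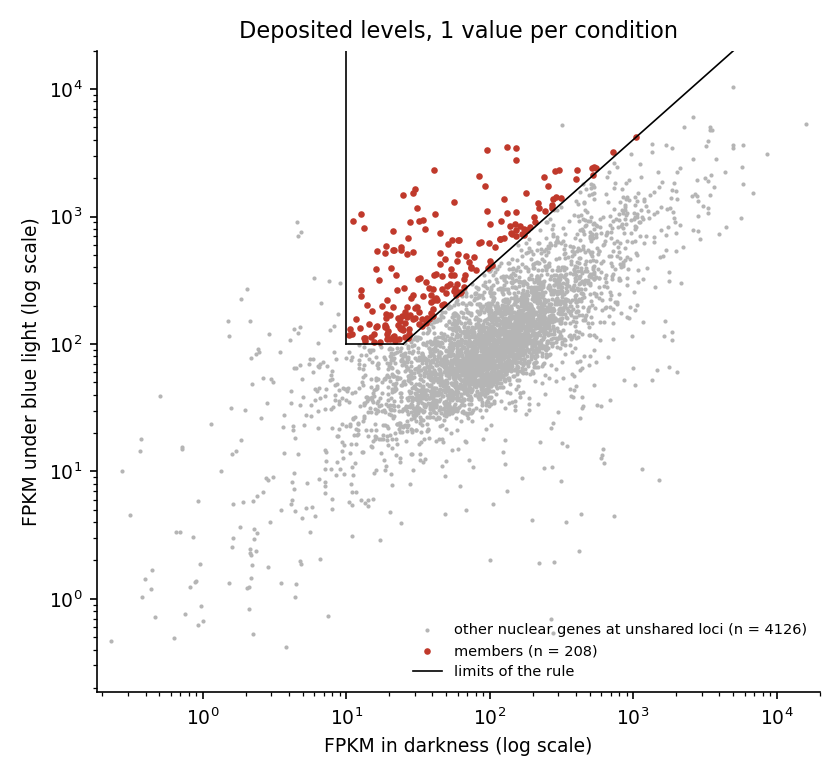
FPKM under blue light against FPKM in darkness for eligible nuclear genes with values above 0 in both conditions, both axes on a log scale, with 1 point per gene. The 208 members lie inside the drawn limits of 10 FPKM, 100 FPKM and 4-fold, and the 2 other points inside them are CMI233C and CMN263C, left out by name.

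The folds were skewed, with more members in the lower part of the range and a long tail above it. The median fold was 6.5 with quartiles of 5.01 and 10.9, and on the log2 scale the median was 2.70, against -0.017 over all tested genes. A fold of 4 to under 5 was held by 52 members, 5 to under 8 by 78, 8 to under 16 by 41, 16 to under 32 by 25 and 32 or more by 12. The authors' test gave a q-value under 0.05 for 208 of 208 members in the authors' deposited table, where 27.1% of all 4503 tested genes were called as rises. Since the members were chosen on this contrast, nothing is read from that count. The highest q-value of a member in the authors' deposited table was 0.037, for CMM257C, and 189 members had the lowest value that occurs in it, 0.000208, as did 1082 tested genes in all. The q-value was 0.01 or more for 5 members, the others being CMP145C (0.017), CMS209C (0.017), CMA090C (0.013) and CMS309C (0.011).

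The size of the fold depended on the darkness level in part by the rule itself, because a scarce gene must rise by more than the fold limit to reach the blue light limit. The 59 members between 10 and 25 FPKM in darkness had a median of 9.04-fold and reached 83.2-fold. The 99 members between 25 and 100 FPKM had a median of 6.22-fold and reached 58.6-fold. The 50 members above 100 FPKM had a median of 5.11-fold and reached 26.3-fold. A place among the members was held by 19.2% of the 308 eligible genes in the first range, 5.99% of 1653 in the second and 2.29% of 2180 in the third.

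The 3 steepest rises started close to the darkness limit. CMK188C, on chromosome 11 from 521512 to 523052, had 11.1 FPKM in darkness and 927 FPKM under blue light, or 83.2-fold. CMN328C, on chromosome 14 from 817564 to 818750, went from 12.7 to 1049 FPKM, or 82.4-fold. The third was CME023C on chromosome 5 from 66841 to 68636, which went from 13.4 to 820 FPKM, or 61.3-fold. With a pseudocount of 10 FPKM in both conditions, the log2 fold changes were 5.47 for CMK188C, 5.54 for CMN328C, 5.15 for CME023C and 5.52 for CMS308C, so that the order of these genes depends on that choice. The darkness values of the 3 genes rest on few fragments. Fragments recovered from the deposited values numbered 14 and 9 in the darkness libraries for CMK188C. For CMN328C they numbered 14 and 6, and for CME023C 21 and 12. Next in order were CMF098C at 58.6-fold, CMS308C at 57.0-fold, CMD051C at 54.1-fold and CME120C at 51.5-fold. Their darkness values also rest on few fragments, 9 and 13 for CME120C, 28 and 25 for CMD051C and 31 and 25 for CMS308C. CMF098C, with 552 bp, was too short for the recovery. CMO111C at 37.3-fold, CMT162C at 36.2-fold and CMM134C at 34.9-fold complete the 10 highest. Without a pseudocount, the drop between CME120C and CMO111C, from 5.69 to 5.22 on the log2 scale, separates 7 genes above 50-fold from the rest. With the pseudocount of 10 FPKM the drop was narrower. CME023C, the lowest of the 7, then stood at 5.15 and CMM134C at 4.985.

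The most abundant members under blue light included both genes already abundant in darkness and genes raised from much lower levels. CMN084C, on chromosome 14 from 211527 to 212511, was the highest of all members in both conditions, with 1056 FPKM in darkness and 4245 FPKM under blue light, and ranked 116th and 9th among eligible genes. At 4.02-fold it lay just inside the fold limit. CMN023C followed a like course, from 721 to 3222 FPKM, as did CMP145C, from 536 to 2456 FPKM, CMM019C, from 553 to 2398 FPKM, and CMD165C, from 519 to 2388 FPKM. Of the genes raised from lower levels the highest was CMJ042C, on chromosome 10 from 120538 to 121751, which went from 132 to 3489 FPKM, from rank 1669 to rank 16. CMQ113C went from 153 to 3426 FPKM, CMM134C from 95.9 to 3344 FPKM and CMB021C from 153 to 2764 FPKM. CMS308C reached 2322 FPKM from 40.8 FPKM, the lowest darkness value among the 10 highest under blue light. Thus 5 of these 10 genes had more than 500 FPKM in darkness, and the others between 40.8 and 153 FPKM. The remaining genes among the 10 highest in darkness were CMS351C at 525 FPKM, CMS188C at 406, CMQ224C at 403, CMR121C at 314 and CMG059C at 306, which stood between 1397 FPKM (CMR121C) and 2313 FPKM (CMS188C) under blue light.

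The genes nearest each limit of the rule are given here on both sides of it. By fold, the lowest members were CMS299C at 4.005, CMN084C at 4.02 and CMP058C at 4.03, and the nearest genes outside were CMK131C at 3.995, CMJ016C at 3.975 and CMS333C at 3.936. By the blue light level, CMN017C at 103 FPKM, CMM044C at 104 and CMR267C at 106 lay inside, and CMM228C at 99 FPKM, CMM163C at 97.9 and CMN258C at 94.9 outside. By the darkness level, CMC157C at 10.5 FPKM, CMN283C at 10.6 and CMM274C at 11.1 lay inside, and CMH178C at 9.0 FPKM, CMK034C at 8.79 and CMN074C at 8.25 outside. By span, CMN291C with 307 bp, CMJ212C with 334 bp and CMM257C with 366 bp lay inside, and CMB149C with 283 bp, CMB148C with 256 bp and CMO171C with 249 bp outside. The 3 genes just under the darkness limit had higher folds, from 16.9 (CMN074C) to 33.3 (CMH178C), than the 3 just above it, from 10.8 (CMM274C) to 12.4 (CMN283C). Of the genes named outside a limit, CMM163C, CMB149C and CMB148C were not called as rises in the authors' deposited table, with q-values of 0.093, 0.085 and 0.087. Besides the 208, the eligible genes held 22 at least 4-fold higher under blue light with 100 FPKM or more there but under 10 FPKM in darkness. Another 37 passed the darkness and fold limits but not the blue light limit. With the 2 conditions exchanged, 103 eligible genes met the same limits.

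Values per library could be recovered for 104 of the 208 members. Deposited FPKM values are printed to 6 digits and are means over the 2 libraries of a condition, in each of which a fragment has a worth of its own, so that the fragments can be read back where exactly 1 combination gives both the FPKM values and the log2 fold change. Which recovered library is which replicate is not known, and within a condition they are told apart as deeper and shallower. Recovery was not attempted for the 28 members spanning under 650 bp, gave several combinations for 75 and none for 1. The recovered members were the less abundant ones, with a median of 211 FPKM under blue light against 788 FPKM for the others. Their fragments, summed over both libraries, ran from 14 to 227 in darkness with a median of 49, and from 51 to 819 under blue light with a median of 231.

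In all 104 recovered members both blue light libraries lay above both darkness libraries, an order shown by 39.5% of the 3011 tested eligible genes with recovered fragments. This too follows in large part from the choice of the members. The lower blue light library exceeded the higher darkness library by a median of 5.03-fold, by 27.3-fold at most (CMT162C) and by 2.62-fold at least (CMR368C). CMT162C, on chromosome 20 from 419613 to 420523, had 25.5 and 16.9 FPKM in the deeper and shallower darkness libraries and 837 and 695 FPKM in the deeper and shallower blue light libraries. CMG058C, on chromosome 7 from 165243 to 166407, had 20.2 and 12.5 FPKM in the darkness libraries and 543 and 525 FPKM in the blue light libraries. In both genes, the libraries of a condition were far closer to each other than to those of the other condition.

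At the lower end, CMR267C had 24.5 and 19 FPKM in the darkness libraries, and its blue light libraries had 83.3 and 128 FPKM, which leaves a narrower gap between the conditions. CMM212C, one of the more abundant recovered members, had 194 and 191 FPKM in the darkness libraries and 883 and 773 FPKM in those of blue light, so that a modest fold of 4.31 went with close agreement of the libraries. Chosen after their values were seen, for their spread, are a further pair of genes. CMM191C differed most between the darkness libraries, with 18.5 and 8.17 FPKM from 12 and 4 fragments, and had 142 and 81.1 FPKM under blue light. CMQ397C differed most between the blue light libraries, with 139 and 73.5 FPKM, and had 11.6 and 15.3 FPKM in darkness. In these 2 genes, as in all 104, the conditions did not overlap, which follows in large part from the choice of the members. A difference of 2-fold or more between the libraries of a condition occurred in 4 of the 104 members in darkness, CMJ265C, CMM044C, CMM191C and CMP271C, and in none under blue light.

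The spread between libraries was close to what the counting of fragments gives in darkness and above it under blue light. The SD between the 2 libraries, on the log2 FPKM scale and over the 104 members, was 0.34 in darkness, where counting alone gives 0.33, and 0.20 under blue light, where counting gives 0.15. A chi-square test of the 2 libraries' fragments, over genes with at least 10, gave 1.09 per degree of freedom for the members in darkness (p = 0.25) and 1.67 under blue light (p = 2.47e-05). Over all recovered genes the value was 1.41 for the 3055 genes in darkness and 1.67 for the 3076 genes under blue light. Over all recovered genes the libraries of a condition thus differed by more than sampling noise and were counted separately. For the members in darkness no excess was detected, but they are far fewer and rest on few fragments. This is therefore no contrast with the other genes. Over the eligible recovered genes in darkness the SD was 0.24, where counting alone gives 0.23. Limma, fitted to log2(FPKM + 1) of all 3027 tested genes with recovered fragments, gave an adjusted p under 0.05 for 104 of 104 members, where 28.9% of the genes in that fit were called as rises. As the contrast is the one that chose the members, nothing is read from this count either. The median log2 difference on that scale was 2.64, and the SE of a member's difference ran from 0.13 to 0.38. With each recovered library left out in turn, 96 to 100 of the 104 were at least 4-fold higher under blue light. Without a given library, 4 to 8 genes thus fell under the fold limit. The rule used the mean over these same libraries, so this count too follows in large part from the choice of the members.

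**Figure D2:**
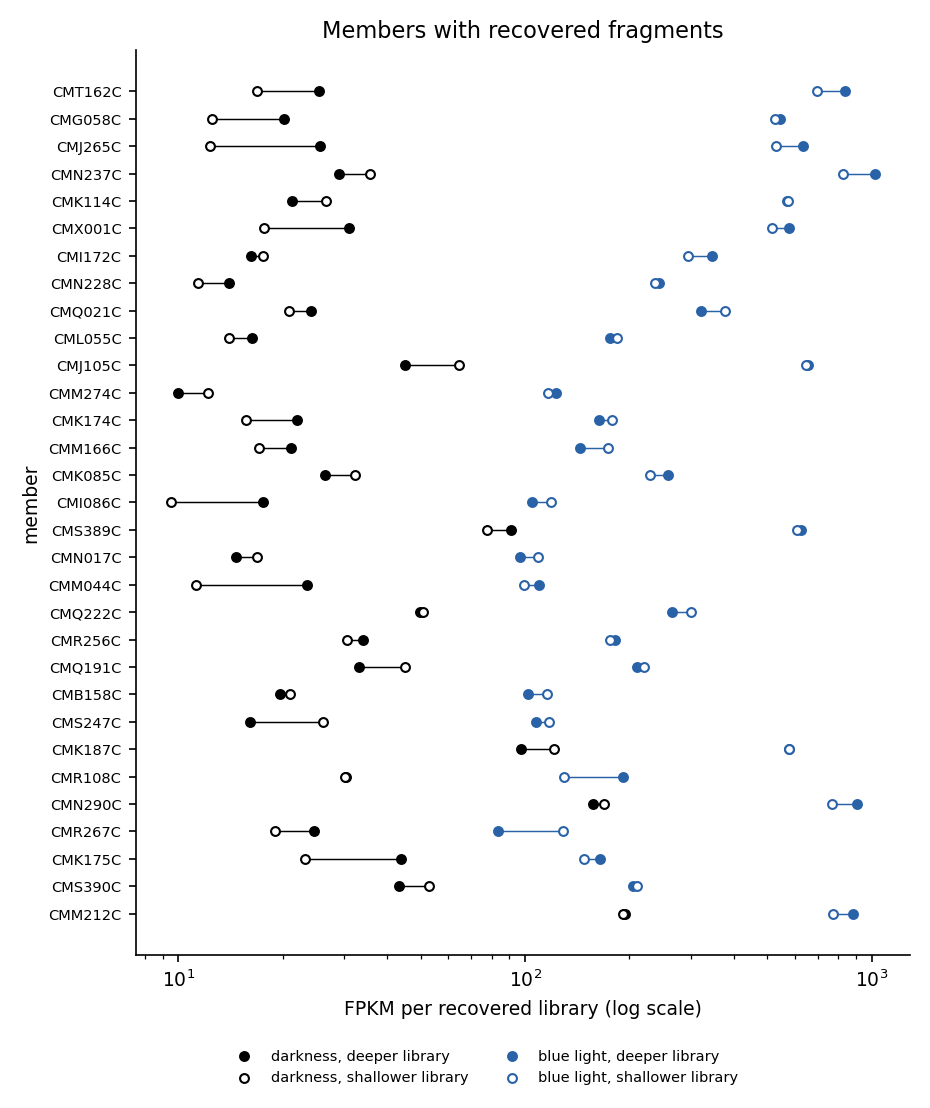
FPKM per recovered library on a log scale for 31 members, the 10 with the highest fold among those with recovered fragments and the other recovered members named by rule, ordered by fold from top to bottom. Black points are darkness and blue points blue light, filled for the deeper and open for the shallower library, joined by a line; in each member both blue points lie to the right of both black points.

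Members were spread over all 20 nuclear chromosomes, from 1.5% of the eligible genes of chromosome 4, 2 genes, to 9.28% of those of chromosome 13, 22 genes. Chromosome 14 followed with 7.52%, or 17 of 226 genes, and chromosome 5 with 6.08%, or 9 of 148. The remaining chromosomes lay between 2.54% (chromosome 2) and 5.05% (chromosome 17). These shares are descriptions, and the differences between chromosomes were not tested. Within 50000 bp of the first or last listed position of a chromosome lay 9.13% of the members and 11.6% of the eligible genes. The members spanned 307 to 3952 bp with a median of 1231 bp, against 1293 bp for all eligible genes. Members made up 4.47% of eligible genes under 650 bp, 5.46% of those from 650 to 2000 bp and 2.67% of those of 2000 bp or more. The lengths taken off the span in the deposited FPKM, 162 to 173 bp as fitted on genes of 650 bp or more, are a larger share of a short span, and how far this touches the levels of the 28 short members was not tested.

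**Figure D3:**
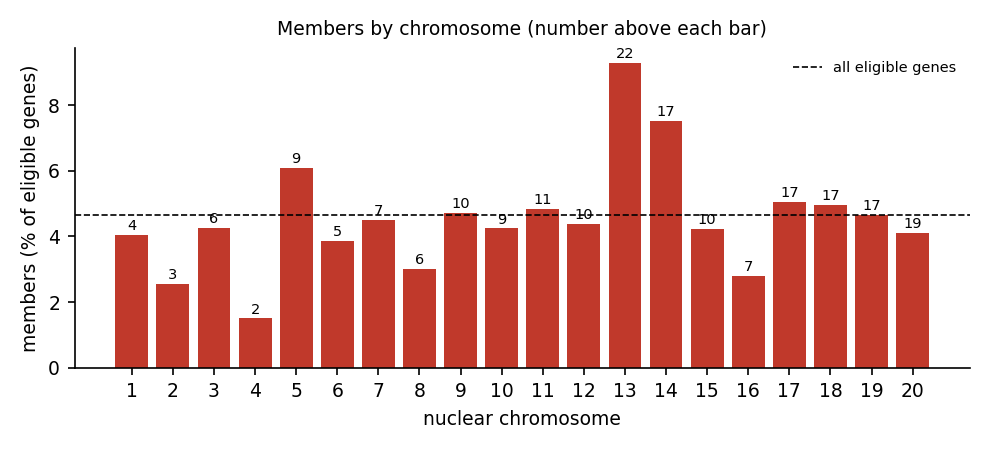
Share of the eligible genes of each nuclear chromosome that were members, in percent, with the number of members above each bar. The dashed line marks 4.67%, the share over all eligible genes; chromosomes 13 and 14 stand highest and chromosome 4 lowest.

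Genes directly beside a member were called as rises more often than genes beside eligible genes in general, and the share was higher at gaps under 500 bp. Neighbours were taken in the order of all listed genes. The rule did not use a neighbour's values to choose the member beside it. It did use them to decide whether an eligible neighbour was a member itself, so neighbours that were no members lack most of the strongest rises. Of 385 tested direct neighbours, 160 rose by the authors' deposited q-values, or 41.6%, and 80 fell, or 20.8%. Beside all eligible genes, 27.1% of direct neighbours rose and 26.5% fell. Of the 385, 40 were members and so chosen for their rise; without them 120 of 345 rose, or 34.8%, against 23.5% of the neighbours of eligible genes that were no members. The median log2 fold change was 0.34 beside members and -0.028 beside eligible genes. At the second gene the shares lay close together: 26.0% of the genes 2 away from a member rose, against 27.0%, with medians of -0.044 and -0.028.

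With a gap under 500 bp, 43 of 69 tested neighbours rose, or 62.3%, and 8 fell, with a median log2 fold change of 1.30. Beside all eligible genes at such gaps 25.2% rose, with a median of -0.041. The size of the change did not grow throughout as the gap shrank, since the median was 0.95 under 200 bp and 1.41 from 200 to under 500 bp. With gaps of 500 to under 1500 bp, 41.1% of 112 neighbours rose, and with 1500 bp or more 34.8% of 204. Genes under 500 bp away included 14 that were members; without these, 29 of 55 rose, or 52.7%, against 21.7% of such neighbours of eligible genes. At 500 bp or more, 91 of 290 neighbours that were no members rose, or 31.4%. Of the 69, 3 lay at shared loci and 0 overlapped the member. These shares are counts over neighbouring genes that share libraries, and they carry no test. The reading strand is not given in the sources used here, and whether fragments reaching past a gene's end add to its neighbour was not tested. Of the 69 close neighbours, 20 had a higher blue light FPKM than the member they lay beside, 15 of them among the 43 that rose. These counts include the 14 neighbours that were members, and in each such pair the higher gene was counted by construction. Nothing is read from them about such fragments.

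**Figure D4:**
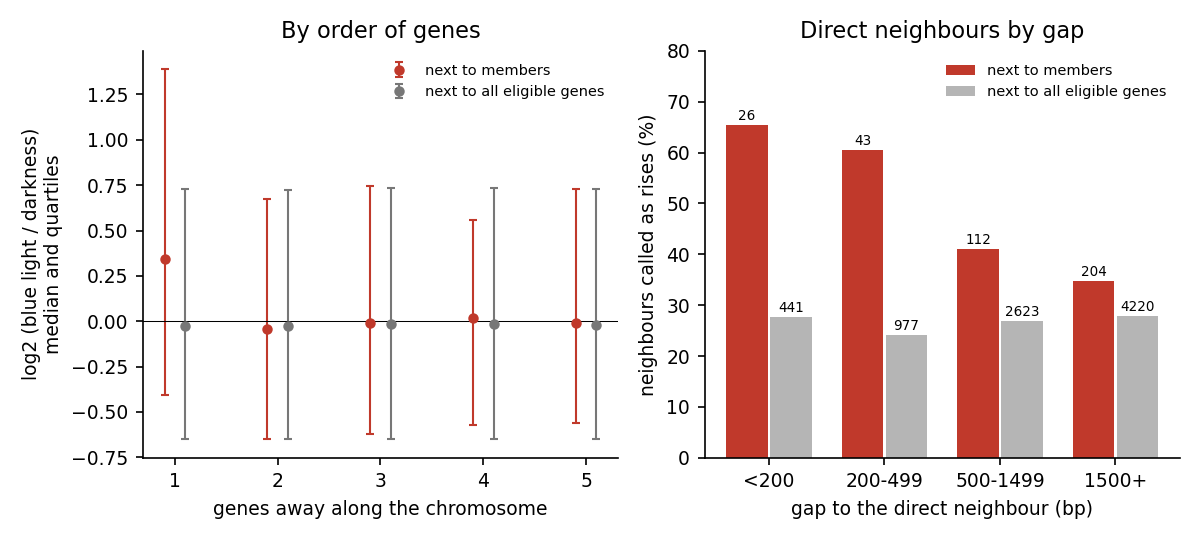
Left, log2 fold change of genes 1 to 5 places away from members (red) and from all eligible genes (grey), as median with quartiles. Right, percent of direct neighbours called as rises by the gap in bp, with the number of tested neighbours above each bar; the red bars stand at 65.4%, 60.5%, 41.1% and 34.8% and the grey ones between 24.2% and 27.9%.

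Several close neighbours that rose but were no members are given as examples, picked after their values were seen. Some were too scarce in darkness for the rule, and others missed its fold limit. CMC158C, 467 bp from CMC157C on chromosome 3, went from 4.80 to 135 FPKM, or 4.81 on the log2 scale, and stood under the darkness limit. CMM165C, 106 bp from CMM166C on chromosome 13, went from 7.36 to 58.7 FPKM. CMT329C and CMT331C flank CMT330C on chromosome 20 at gaps of 312 and 439 bp, and went from 75.4 to 295 FPKM and from 36.2 to 98.5 FPKM. At the other end, CMQ114C, 94 bp from CMQ113C, went from 1141 to 2057 FPKM, or 0.85 on the log2 scale, beside the 22.4-fold rise of the member. All 5 were called as rises in the authors' deposited table. The mirror set of 103 genes that met the limits with the conditions exchanged had 23 tested neighbours within 500 bp, of which 12 fell, or 52.2%, and 5 rose. Beside all eligible genes at such gaps 25.6% fell. Without neighbours of the mirror set itself, 9 of 19 fell, or 47.4%, against 24.6%.

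Members also lay beside each other. A direct neighbour that was a member too was found for 39 of the 208, or 18.8%, against 8.68% of eligible genes. These 39 formed 18 pairs and 1 run of 3, with gaps from 105 to 4030 bp. The run of 3, CMM166C, CMM167C and CMM169C on chromosome 13 from 388142 to 398047, stood at 19.1, 101 and 14.5 FPKM in darkness and reached 159, 882 and 142 FPKM. Its levels thus differed several-fold from gene to gene while the folds, 8.32, 8.76 and 9.83, were alike. For CMM166C the libraries had 21.1 and 17.1 FPKM in darkness and then 144 and 174 FPKM.

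Folds within a pair were alike in some cases and far apart in others. CMK085C and CMK086C, on chromosome 11, rose 8.29-fold and 8.56-fold from 29.4 and 239 FPKM. CMI086C and CMI087C on chromosome 9, 1277 bp apart, rose 8.25-fold and 7.26-fold. The pair with the smallest gap, CMK174C and CMK175C, 105 bp apart, had 22.0 and 15.7 FPKM and 43.9 and 23.2 FPKM in the darkness libraries. Under blue light they had 163 and 178 FPKM and 164 and 148 FPKM, nearly the same level. CMS308C and CMS309C on chromosome 19, 528 bp apart, both belonged to the steep rises, with 57.0-fold and 27.8-fold. CMS309C spans 432 bp, too short for the recovery, and had 18.6 FPKM in darkness. By contrast CMK187C rose 5.30-fold and its neighbour CMK188C, 1164 bp away, 83.2-fold. CMR108C and CMR109C, 249 bp apart on chromosome 18, rose 5.29-fold and 24.0-fold. CMN227C and CMN228C on chromosome 14 rose 4.90-fold from 278 FPKM and 18.9-fold from 12.7 FPKM.

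CMX001C and CMJ105C, 2412 bp apart on chromosome 10, went from 24.3 to 547 FPKM and from 54.7 to 649 FPKM. CMG058C and CMG059C on chromosome 7 differed in level, at 534 and 2299 FPKM under blue light, and in fold, at 32.7 and 7.51. CMI184C and CMI185C on chromosome 9 reached 113 and 611 FPKM, and CMB157C and CMB158C on chromosome 2 reached 1064 and 109 FPKM. CMN290C and CMN291C, 156 bp apart, rose 5.14-fold and 7.60-fold, CMM212C and CMM214C, 176 bp apart, 4.31-fold and 6.93-fold, and CMR255C and CMR256C, 222 bp apart, 4.35-fold and 5.54-fold. CMS389C and CMS390C, 341 bp apart, rose 7.30-fold and 4.31-fold, and CMS247C and CMS248C 5.32-fold and 14.2-fold. The pairs CMQ190C and CMQ191C, at 4.90-fold and 5.50-fold, and CMQ222C and CMQ224C, at 5.63-fold and 4.91-fold, both lay on chromosome 17.

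The 140 members outside the naming rule, a few of which are mentioned above for their spread, span or neighbours, stood between 11.8 and 287 FPKM in darkness and between 106 and 2268 FPKM under blue light, with folds from 4.03 to 32.6 and a median of 6.23.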

How the data were processed

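RNA was extracted with Trizol and libraries were made with a TruSeq kit, per the labels' protocols, for 2 libraries per condition. Per the submitters' processing notes, the authors used TopHat2 2.0.5 and Cuffdiff; for the Cuffdiff version, genome build, annotation and normalization the sources name nothing. Deposited by the authors were 1 FPKM value per gene and condition, a log2 fold change, a test statistic (a score, not used) and a p-value with an adjusted q-value. A rise or fall is a deposited q-value under 0.05. Whole fragments per library were recovered by a search over the 6 printed digits for genes of 650 bp or more at unshared loci. Of 1279 checkable genes in darkness and 1755 under blue light, 99.7% and 99.9% came out whole, against 1.41% and 1.77% for decoy values. Over the 3169 recovered genes the libraries held 378402 and 286934 fragments in darkness and 252183 and 196834 under blue light. Limma 3.58.1 (R 4.3.3) was fitted to log2(FPKM + 1), with Benjamini-Hochberg adjustment. The text names the 10 highest members by blue light level, darkness level and fold, the 3 nearest each side of a limit, and members beside each other. The members, lists and rules were chosen with earlier results of these data known. Lists by product, promoter motifs and protein identity were not analysed here.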

Additional observations from a re-analysis of the deposited data

How the results depend on the processing

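A fold limit of 8 left 78 of the 208 members. The other limits tried gave between 144 members (200 FPKM under blue light) and 309 (a fold limit of 3). The median log2 fold change, 2.70, was 2.65 with a pseudocount of 1 FPKM, 2.39 with 10 FPKM and 2.72 centred on all tested genes. With each recovered library left out in turn, the median log2 difference of the 104 recovered members by limma ran from 2.62 to 2.66, against 2.64. The members were chosen on this contrast, and nothing is read from its staying high. A condition then rests on 1 library, assumed to vary like the others. Of neighbours under 500 bp away, 56.5% rose at a q-value under 0.01, 62.1% at unshared loci and 65.4% under 200 bp; these alternatives were chosen after seeing the data. No paired analysis was possible because neither the deposited columns nor the recovered libraries have replicate numbers. The promoter motif alternatives were not run. For the 68 members named by rule, 204 alternatives were computed, with the 2 pseudocounts and the centring. With 10 FPKM, 28 of the 68 moved, meaning by at least the SD between libraries, both conditions combined. The other alternatives moved no member. A change of direction was not possible, because these settings cannot turn a log2 fold change of 2 or more. Depth limits the darkness values, which rest on 14 to 227 fragments over both libraries in the recovered members. This range does not cover the 28 members under 650 bp, the 75 with several combinations or the 1 with none.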
